A study of Danio rerio with 16 samples.

Results

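The 6 arrays described here carry the mutant label at 36 h and fall into a set numbered 1 to 3 (3 arrays) and a set numbered 4 to 6 (3 arrays), out of 16 arrays in the series. They were chosen by label alone. The question was what tissues, brain regions and cell types each set was rich in. The other zebrafish (Danio rerio) arrays are wild type at 36 h, number 1 (1 array) and numbers 4 to 6 (3 arrays), and embryos at the 12-somite stage given control RNA (3 arrays) or Foggy(DelCter) RNA (3 arrays). The labels give the 36 h material as embryonic brain in one field and as brain with adrenal medulla in another. They name no allele, no dissection and no difference in age between the numbers, and do not say whether embryos were pooled or came from separate clutches. The p-values thus reflect the scatter among these arrays alone, and that scatter could be technical. Below, arrays 1-3 and arrays 4-6 mean the arrays labelled mutant, and wild-type arrays are named as such.

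As background, foggy is a mutation of supt5h, the gene of the transcription elongation factor Spt5. In a vertebrate embryo the forebrain, midbrain and anterior hindbrain lie in front of the territory of most Hox genes, which mark successively more posterior hindbrain, spinal cord and trunk by paralog group. The yolk syncytial layer, which makes apolipoproteins and other serum proteins, and the axial muscle lie outside the head, so their messages and those of posterior Hox genes are read here as marks of yolk and trunk. Eye, ear, skin and jaw tissue lie around the brain and can come with it.

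Expression was read on 1-colour Affymetrix arrays, with 1 intensity per probe set in linear units. The deposited values had array medians of 65.7 to 66.4 units in arrays 1-3 and 47.6 to 49.1 in arrays 4-6, so they were quantile normalized as log2(value + 16) before any test. All log2 differences below are arrays 1-3 minus arrays 4-6 on that scale, which understates the change of dim genes, while single values are intensities as deposited. Unused tag control probe sets reached 34.4 units at most, and a set mean at or under that level is called dim here. Set means were compared with that level as deposited, and deposited medians were higher in arrays 1-3. A list can therefore have more genes above it in arrays 1-3 for that reason alone. The share of all probe sets above it is not given, so these counts describe detection and set no direction. The 3'/5' ratio of the GAPDH control was 0.83 to 0.95 (log2) in arrays 1-3 and 0.52 to 0.84 in arrays 4-6, and these ranges overlapped. That of the actin control was 1.65 to 1.96 in arrays 1-3 and 2.35 to 2.55 in arrays 4-6, without overlap. The gapdh message itself was lower in arrays 1-3 (-4.68), and whether that bears on its control ratio was not tested. The part of RNA quality in the results was not tested, and whatever else goes with the numbers cannot be told apart from them.

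The targeted gene was read first, as a check of the labels. Values of supt5h were 258, 245 and 254 units in arrays 1-3, against 40.1, 47.05 and 38.6 in arrays 4-6, and 209.8 in wild-type array 1, against 197, 231 and 166 in wild-type arrays 4-6. Arrays 4-6 were low and stood apart from all the others, while arrays 1-3 were no lower than wild type. The log2 difference was 2.04 ± 0.10 (SE, n = 3 each, limma adjusted p = 5.67e-07), and under the wild-type label it was 0.04. What genotype arrays 1-3 hold was not tested, so they are called the arrays labelled mutant throughout.

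Of 15502 probe sets, 4318 (27.9%) were higher in arrays 1-3 and 4581 (29.6%) were lower (limma, adjusted p under 0.05). At least 4-fold differences were found for 433 higher (2.79%) and 356 lower (2.30%). The median difference over all probe sets was -0.02. Without between-array normalization the calls split as 6289 higher and 3370 lower, with a median of 0.20 over all probe sets. With array medians centred they split as 3578 and 5922, with a median of -0.15. Small differences therefore have no settled direction, and a gene list is described below as higher or lower only where its median passes 0.5 or nearly all of its members were called one way. The median SD between arrays of a set was 0.11 in arrays 1-3 and 0.16 in arrays 4-6 (log2). The 52 gene lists with 3 or more measured genes are shown in the plot of list medians. Their counts of higher and lower genes are to be read against the shares of all probe sets just given. In such bulk RNA, fewer cells of a type and less RNA per cell cannot be told apart.

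**Figure D1:**
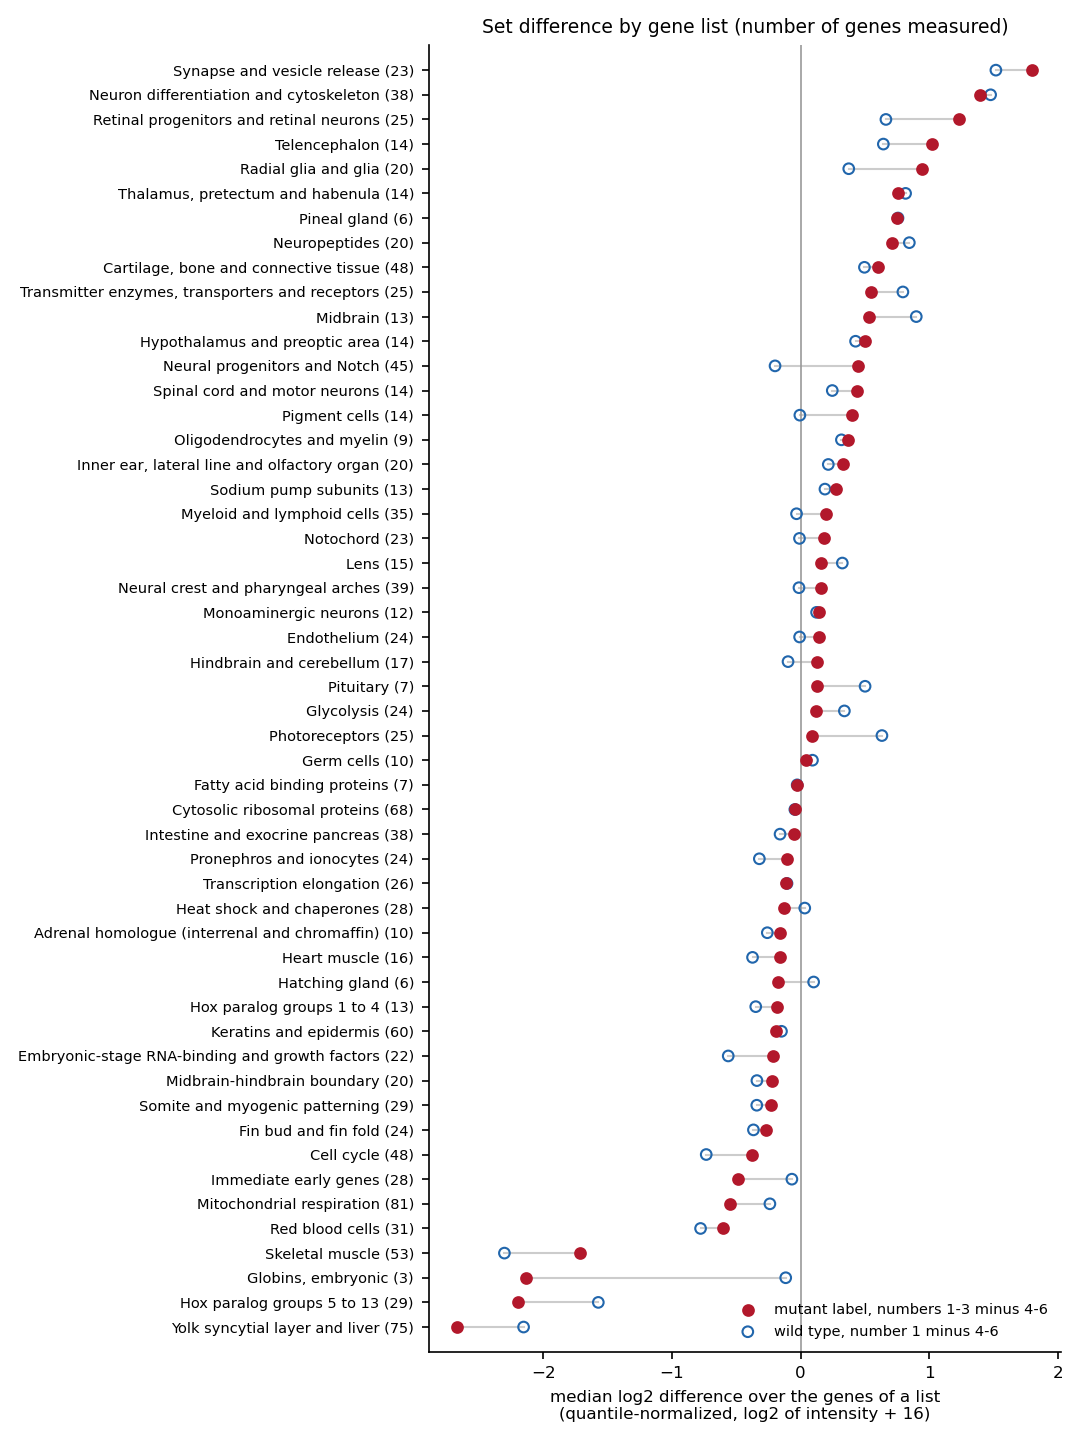
Median log2 difference over the genes of each list (x axis) for arrays labelled mutant, numbers 1-3 minus 4-6 (filled), and for wild type, number 1 minus 4-6 (open), with the number of genes measured in brackets. Synapse genes lie at the top with a median of 1.80 and yolk and liver genes at the bottom with -2.67.

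Serum-protein and lipid-transport genes separated the sets most. Of 75 genes of the yolk syncytial layer and liver, 57 were lower in arrays 1-3 and 5 higher, with 41 at least 4-fold lower. Of these genes, 18 had a mean above the tag controls in arrays 1-3, against 54 in arrays 4-6. Values of afp4, which encodes an apolipoprotein-like type IV antifreeze protein, were 25.4, 9.24 and 10.9 units in arrays 1-3 and 11022, 12313 and 10980.1 in arrays 4-6. The 3 low values lie under the tag controls, so the difference is bounded at 242-fold or more (adjusted p = 4.4e-09). The transferrin gene tfa followed the same order, with 20.2, 20.7 and 24.3 units in arrays 1-3 and 5441, 5553 and 5184 in arrays 4-6 (at least 119-fold, adjusted p = 7.46e-10). So did fabp2, the intestinal fatty acid binding protein, with 28.1, 34.4 and 31.02 in arrays 1-3 and 5912, 6132 and 5399.5 in arrays 4-6 (at least 127-fold, adjusted p = 9.45e-10). The sets did not overlap for any of these genes, but that was a condition for naming a gene by size or brightness. Apolipoprotein genes beyond these were apoc1 (-7.44), apoa2 (-7.12), apoa4b.2 (-6.79), apobb.1 (at least 96.9-fold) and apoba (at least 39.9-fold), all lower in arrays 1-3. The bounds were at least 105-fold for serpina1l, a serine protease inhibitor, and at least 29.97-fold for cfhl4, a complement factor H-like gene.

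Among the genes named for the size of their difference or their brightness were metabolic enzymes, of which only gamt was on the yolk and liver list. Both enzymes that make creatine were lower in arrays 1-3. Values of gatm, the first of them, were 81.9, 67.4 and 87.2 units in arrays 1-3 and 4802, 5246 and 4476 in arrays 4-6 (log2 difference -5.76 ± 0.12, adjusted p = 6.64e-09). Those of gamt, the next, were 114, 131 and 118 in arrays 1-3 and 7308, 6546 and 7330.3 in arrays 4-6 (log2 difference -5.67 ± 0.10). The sets did not overlap for either, which was a condition for naming a gene by size or brightness. Other genes far lower in arrays 1-3 were bhmt, which remethylates homocysteine (-4.54), fbp1b, a gluconeogenic fructose bisphosphatase (at least 57.7-fold), dao.1, a D-amino acid oxidase (at least 30.6-fold), gpx4a, a glutathione peroxidase (-4.79), ces2a, a carboxylesterase (at least 25.5-fold), acp5a, an acid phosphatase (at least 41.4-fold), and fahd2a (-4.48).

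Digestive-tract genes had no common direction. Of 38 genes of intestine and exocrine pancreas, 9 were lower, 8 were higher and 21 were not called (median -0.05). Both shares lie under those of all probe sets. Means above the tag controls were found for 7 of the 38 in arrays 1-3, against 11 in arrays 4-6. The lower ones included the endoderm regulator gata5, at 11.1, 12.2 and 18.8 units in arrays 1-3 and 182, 189 and 211 in arrays 4-6 (at least 4.95-fold, adjusted p = 1.62e-07). The cadherin gene cdh17, of gut and kidney tubule, was at 14.999, 10.6 and 9.37 units in arrays 1-3 and 144, 194 and 224 in arrays 4-6 (at least 4.75-fold, adjusted p = 6.26e-07). All 3 arrays 1-3 were dim for both genes and all 3 arrays 4-6 were not. The higher members included neurod1 and ptf1a, which also act in the nervous system.

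Posterior Hox genes were lower in arrays 1-3, while those of groups 1 to 4 had no settled direction as a list. Of 29 genes of Hox paralog groups 5 to 13, 29 were lower in arrays 1-3 and 17 were at least 4-fold lower, with a median of -2.20. Means above the tag controls were found for 3 of them in arrays 1-3, against 24 in arrays 4-6. Members dim in both sets included hoxa5a (-0.43 ± 0.12, adjusted p = 0.0153), whose sets overlapped before normalization. Its values were 29.7, 22.8 and 33.6 units in arrays 1-3 and 24.6, 30.8 and 32.8 in arrays 4-6. Of 13 genes of groups 1 to 4, 6 were lower and 2 higher, with a median of -0.18. The median by group was -1.31 for group 1 (3 genes), 0.01 for group 2 (2 genes), 0.08 for group 3 (4 genes), -0.70 for group 4 (4 genes) and -1.37 for group 5 (4 genes). It then lay between -2.50 and -2.91 for groups 6, 8, 9 and 10, at -1.42 for group 7 (1 gene), -1.80 for group 11, -0.97 for group 12 (1 gene) and -2.05 for group 13.

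Single Hox genes follow as examples. The order by group was not strict, as hoxb1a of group 1 had -1.31 and hoxa13b of group 13, dim in both sets, had -0.67. Values of hoxb9a were 11.1, 3.44 and 4.29 units in arrays 1-3 and 252, 165 and 231 in arrays 4-6 (at least 5.38-fold, adjusted p = 4.19e-07). Those of hoxd10a were 15.3, 5.96 and 16.1 in arrays 1-3 and 219, 228 and 235 in arrays 4-6 (at least 5.68-fold, adjusted p = 2.36e-07). Arrays 1-3 were dim for both and the sets did not overlap. In front of these, hoxa2b, of the anterior hindbrain, was at 129, 114 and 109 units in arrays 1-3 and 83.2, 100.2 and 70.5 in arrays 4-6, and did not pass the test (0.20 ± 0.13, adjusted p = 0.203). The group 2 gene hoxb2a was at 118, 105 and 124 units in arrays 1-3 and 114, 116 and 117 in arrays 4-6 (-0.18 ± 0.10, adjusted p = 0.175), with sets that overlapped. Both sets thus held these group 2 messages above the tag controls.

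**Figure D2:**
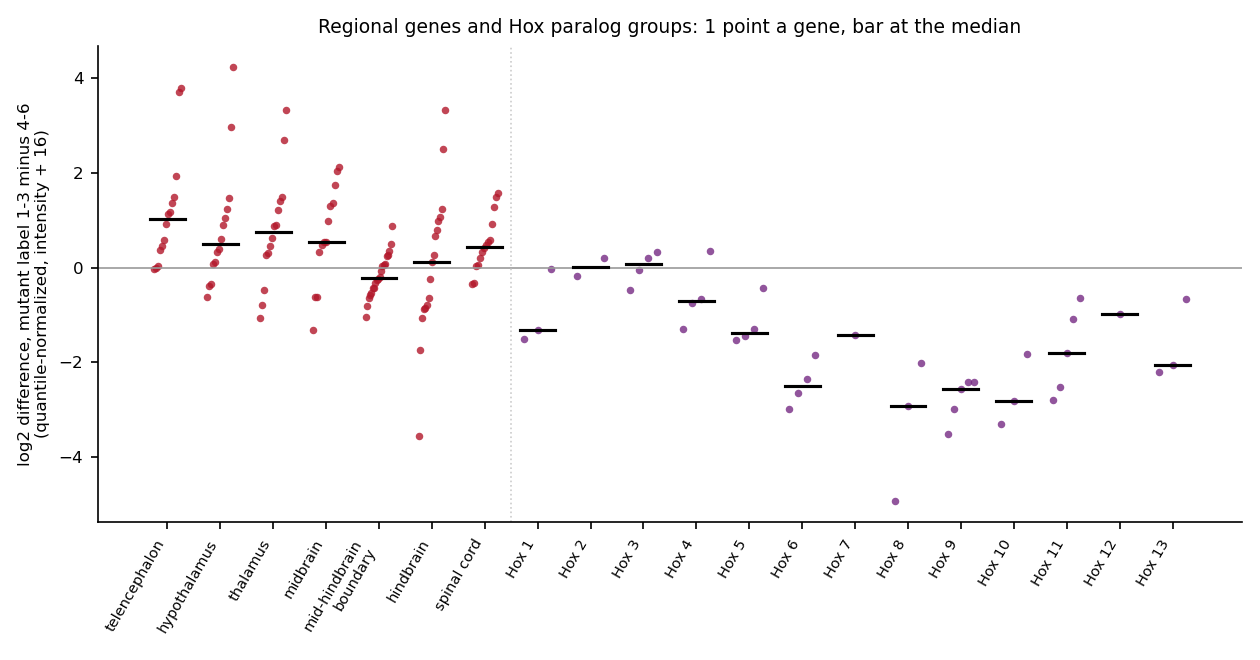
Log2 difference, arrays 1-3 minus arrays 4-6 of the mutant label (y axis), for the genes of 7 regional lists from telencephalon to spinal cord (left) and of Hox paralog groups 1 to 13 (right); a bar marks each median. The medians are 1.02 for telencephalon, -0.22 for the midbrain-hindbrain boundary, 0.08 for Hox group 3 and -2.91 for Hox group 8.

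Forebrain genes were richer in arrays 1-3. Of 14 telencephalic genes, 11 were higher and the other 3 did not pass, with a median of 1.02. Deposited means lay above the tag controls for 13 of them in arrays 1-3, against 7 in arrays 4-6. The higher deposited medians of arrays 1-3 could add to that gap. Values of foxg1b, a paralogue of the telencephalic regulator foxg1a, were 656, 645 and 686 units in arrays 1-3 and 21.1, 27.1 and 42.9 in arrays 4-6 (at least 11.95-fold, adjusted p = 2.26e-07). Those of lhx9, a LIM homeobox gene of the dorsal forebrain, were 337, 331 and 343 in arrays 1-3 and 3.33, 8.58 and 15.7 in arrays 4-6 (at least 6.25-fold). Means of arrays 4-6 were dim for both. Also higher was emx2 (1.93 ± 0.12, adjusted p = 2.02e-06). By contrast dlx5a did not pass (0.03 ± 0.14, adjusted p = 0.869), with values of 331, 311 and 269 in arrays 1-3 and 246, 307 and 353 in arrays 4-6. The gene dlx5a is also used in the pharyngeal arches and ear.

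The diencephalon followed. Of 14 genes of the hypothalamus and preoptic area, 8 were higher and 2 lower (median 0.50). Values of otpb, which specifies neuroendocrine and dopaminergic neurons there, were 916, 948 and 945 units in arrays 1-3 and 25.3, 26.2 and 51.3 in arrays 4-6 (at least 16.6-fold, adjusted p = 2.26e-07). Those of lhx5 were 518, 537 and 528 in arrays 1-3 and 45.6, 43.97 and 57.4 in arrays 4-6 (2.97 ± 0.11, adjusted p = 1.06e-07). The sets lay far apart for both. Of 14 genes of thalamus, pretectum and habenula, 11 were higher and 3 lower (median 0.76). Here barhl2 was at 243, 245 and 279.8 units in arrays 1-3 and 19.8, 21.2 and 20.8 in arrays 4-6 (at least 4.75-fold, adjusted p = 1.37e-07), and pax6a at 382, 358 and 388 in arrays 1-3 and 133, 129.6 and 119 in arrays 4-6 (1.41 ± 0.10). The Iroquois gene irx1b went the other way (-1.07 ± 0.13, adjusted p = 0.000104). Among 6 pineal genes, crx, which drives photoreceptor genes in pineal and retina, was at 380.5, 427 and 429.8 units in arrays 1-3 and 3.75, 2.35 and 4.04 in arrays 4-6 (at least 7.62-fold, adjusted p = 1.24e-08).

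Midbrain genes were mostly higher, and genes of the midbrain-hindbrain boundary were not. Of 13 midbrain genes, 10 were higher and 3 lower (median 0.53). Values of otx2b, which sets midbrain and forebrain identity, were 513, 501 and 409 units in arrays 1-3 and 143, 129.8 and 111 in arrays 4-6 (1.74 ± 0.13, adjusted p = 6.12e-06), while its paralogue otx2a was lower, with 7.84, 9.53 and 14.8 in arrays 1-3 and 35.5, 43.7 and 29.7 in arrays 4-6 (at least 1.37-fold). Of 20 boundary genes, 4 were higher and 6 lower (median -0.22). The engrailed gene en2a was higher, with 129.9, 159.8 and 165 units in arrays 1-3 and 63.5, 64.2 and 57.8 in arrays 4-6 (0.89 ± 0.12, adjusted p = 0.000194). Its relative en1b was at 212, 182 and 197 in arrays 1-3 and 131, 164 and 248 in arrays 4-6, with overlap and no call (0.07 ± 0.19, adjusted p = 0.759). The FGF target etv5b (-1.03 ± 0.09, adjusted p = 2.14e-05) and the FGF antagonist spry4 (-0.64 ± 0.13, adjusted p = 0.00263) were lower.

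Hindbrain genes had no common direction. Of 17, 7 were higher and 6 lower (median 0.12). The Maf-family gene mafbb was at 37.3, 33.6 and 53.3 units in arrays 1-3 and 614, 555 and 556 in arrays 4-6 (-3.55 ± 0.14, adjusted p = 1.53e-07). The rhombomere gene egr2b (krox20) was at 8.15, 5.73 and 19.1 in arrays 1-3 and 65.8, 75.4 and 33.3 in arrays 4-6 (at least 1.83-fold, adjusted p = 0.000232). Both were lower without overlap, as was hoxb1a (17.6, 20.2 and 14.6 in arrays 1-3, 46.9, 61.7 and 39.5 in arrays 4-6). By contrast pcp4a, a calmodulin-binding Purkinje cell peptide, was higher, with 252, 317 and 297 units in arrays 1-3 and 28.3, 28.3 and 37.7 in arrays 4-6 (at least 5.23-fold, adjusted p = 6.87e-07). The LIM homeobox gene lhx1a, which is also used in thalamus and kidney, was at 347, 404 and 433 in arrays 1-3 and 23.2, 13.2 and 25.5 in arrays 4-6 (at least 7.26-fold).

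The spinal cord list did not follow the posterior Hox genes. Of 14 genes, 9 were higher in arrays 1-3 and 1 lower (median 0.44). The transporter slc18a3a, which loads acetylcholine into vesicles, was at 96.6, 100.1 and 95.7 units in arrays 1-3 and 30.6, 30.2 and 35.95 in arrays 4-6 (at least 1.79-fold, adjusted p = 5.86e-05). The motor neuron and oligodendrocyte progenitor gene olig2 was at 166, 191 and 194 in arrays 1-3 and 62.5, 61.6 and 42.8 in arrays 4-6 (1.29 ± 0.13, adjusted p = 4.33e-05). Whether these messages came from spinal cord or from neurons of the brain was not tested.

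Messages of differentiated neurons were higher in arrays 1-3 as a group. Of 38 genes of neuronal differentiation and cytoskeleton, 33 were higher, 17 of them at least 4-fold, and the other 5 did not pass (median 1.40). Values of gng3, a neuronal G-protein gamma subunit, were 1589, 1666 and 1619 units in arrays 1-3 and 78.6, 73.02 and 91.01 in arrays 4-6 (4.13 ± 0.10, adjusted p = 1.43e-08). Those of rtn1b, a reticulon of neuronal endoplasmic reticulum, were 1555, 1346 and 1395 in arrays 1-3 and 37.2, 63.1 and 88.7 in arrays 4-6 (4.28 ± 0.20, adjusted p = 4.61e-07). Each of arrays 1-3 lay above each of arrays 4-6. Of 23 synaptic genes, 20 were higher and 1 lower (median 1.80). The vesicle protein genes sypb (at least 13.7-fold) and sypa (3.37 ± 0.12) and the SNARE gene snap25b (at least 6.25-fold) were among them. The exception was camk2d1 (at least 2.35-fold lower, adjusted p = 0.000104), a calmodulin-dependent kinase also found in muscle.

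Transmitter and peptide genes followed in part. Of 25 transmitter enzymes, transporters and receptors, 18 were higher and the other 7 did not pass (median 0.55). The GABA-synthesizing enzyme gad1b was at 405, 409 and 386 units in arrays 1-3 and 17.9, 20.2 and 28.7 in arrays 4-6 (at least 7.37-fold, adjusted p = 1.37e-07). The vesicular GABA transporter slc32a1 was at 304, 337 and 318 in arrays 1-3 and 27.1, 33.9 and 49.5 in arrays 4-6 (2.52 ± 0.15, adjusted p = 1.58e-06). The sets lay apart for both. Of 20 neuropeptide and secretory granule genes, 11 were higher and 1 lower (median 0.71), led by cpe, a peptide-processing carboxypeptidase (3.91 ± 0.17, adjusted p = 2.72e-07), and adcyap1b, which encodes PACAP (3.00 ± 0.12, adjusted p = 2.26e-07). Among 12 monoaminergic genes, 3 were higher and 1 lower. The catecholamine enzyme genes th (2.98, 1.71 and 1.45 units in arrays 1-3, 2.06, 3.44 and 11.1 in arrays 4-6) and dbh (5.995, 5.12 and 3.68 in arrays 1-3, 0.965, 9.25 and 4.03 in arrays 4-6) were dim in all 6 arrays.

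Neural progenitor genes went in both directions. Of 45 genes of progenitors and Notch signalling, 25 were higher in arrays 1-3 and 8 lower (median 0.44). Members with large differences act in newborn neurons. Values of neurod6b were 392, 421 and 417 units in arrays 1-3 and 1.54, 11.4 and 3.904 in arrays 4-6 (at least 7.54-fold, adjusted p = 1.68e-07). Those of neurod1, a neuronal differentiation factor, were 1299, 1293 and 1284 in arrays 1-3 and 65.5, 60.6 and 51.7 in arrays 4-6 (4.14 ± 0.10, adjusted p = 1.4e-08). The sets were far apart for both. The pan-progenitor gene sox3 was at 1254, 1412 and 1390.2 in arrays 1-3 and 1300.0, 1196 and 1023 in arrays 4-6 (0.46 ± 0.12, adjusted p = 0.00937), with sets that overlapped before normalization. Notch effectors on the other side included her8a (-1.29 ± 0.16, adjusted p = 0.000164) and her9 (-0.77 ± 0.11, adjusted p = 0.000395), and the antiproliferative gene btg2 was lower too (-1.15 ± 0.16, adjusted p = 0.000288).

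Cell cycle genes had no settled direction as a list. Of 48, 27 were lower, 6 were higher and the other 15 were not called (median -0.38). Values of birc5a, the mitotic and survival protein survivin, were 401, 377 and 380.3 units in arrays 1-3 and 914, 1126 and 1023 in arrays 4-6 (-1.25 ± 0.10, adjusted p = 1.32e-05). Those of gmnn, the replication licensing inhibitor geminin, were 49.4, 57.6 and 57.2 in arrays 1-3 and 114, 122 and 99.8 in arrays 4-6 (-1.13 ± 0.11, adjusted p = 3.23e-05). The mitotic kinesin gene kif11 ran against them, with 709, 738 and 718 in arrays 1-3 and 483, 454 and 440.3 in arrays 4-6 (0.75 ± 0.09, adjusted p = 0.000148).

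Radial glial genes were mostly higher in arrays 1-3, with large differences in both directions. Of 20 genes, 13 were higher, 8 of them at least 4-fold, and 4 were lower, 1 of them at least 4-fold (median 0.95). Brain lipid binding protein, fabp7a, was at 3808, 3936 and 3828 units in arrays 1-3 and 239.8, 237 and 435 in arrays 4-6 (3.82 ± 0.20, adjusted p = 8.07e-07). The glutamate transporter slc1a2b was at 831, 824 and 835 in arrays 1-3 and 48.2, 50.1 and 54.9 in arrays 4-6 (3.63 ± 0.10, adjusted p = 2.01e-08). The related transporter slc1a3a was lower, with 103, 117 and 88.1 in arrays 1-3 and 446, 458 and 400.1 in arrays 4-6 (-2.03 ± 0.13, adjusted p = 2.24e-06). Each pair of sets was apart, so the glutamate transporters of this list did not share a direction. The glutamine synthetase gene glula was lower too (-1.99 ± 0.10, adjusted p = 7.16e-07). Of 9 oligodendrocyte genes, 5 were higher and 3 lower, and mbpb, a myelin basic protein gene, was lower (-0.64 ± 0.11, adjusted p = 0.0011).

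Retinal genes were richer in arrays 1-3, and a few lens genes were far higher there. Of 25 genes of retinal progenitors and neurons, 18 were higher and 2 lower (median 1.23). The bipolar cell gene vsx1 was at 1015, 1055 and 1102 units in arrays 1-3 and 13.2, 18.2 and 12.98 in arrays 4-6 (at least 20.7-fold, adjusted p = 6.64e-09). Of 15 lens genes, 7 were higher, 2 were lower and the other 6, dim in both sets, did not pass. The crystallin genes crygmxl2 (1177, 1109 and 1132 in arrays 1-3, 7.72, 2.68 and 2.53 in arrays 4-6, at least 22.4-fold) and cryba4 (1750.5, 1626 and 1682 in arrays 1-3, 24.3, 26.9 and 17.5 in arrays 4-6, at least 32.9-fold) were dim in arrays 4-6, so only these bounds are given. Photoreceptor genes were mostly dim, as 9 of 25 had means above the tag controls in arrays 1-3 and 4 in arrays 4-6. They showed no common direction, with 8 higher and 6 lower. Pigment cell genes were higher in 7 of 14 cases, and pmelb, a melanosome matrix protein, was at 129.5, 113 and 141 in arrays 1-3 and 7.52, 4.22 and 11.6 in arrays 4-6 (at least 2.36-fold, adjusted p = 2.31e-06).

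**Figure D3:**
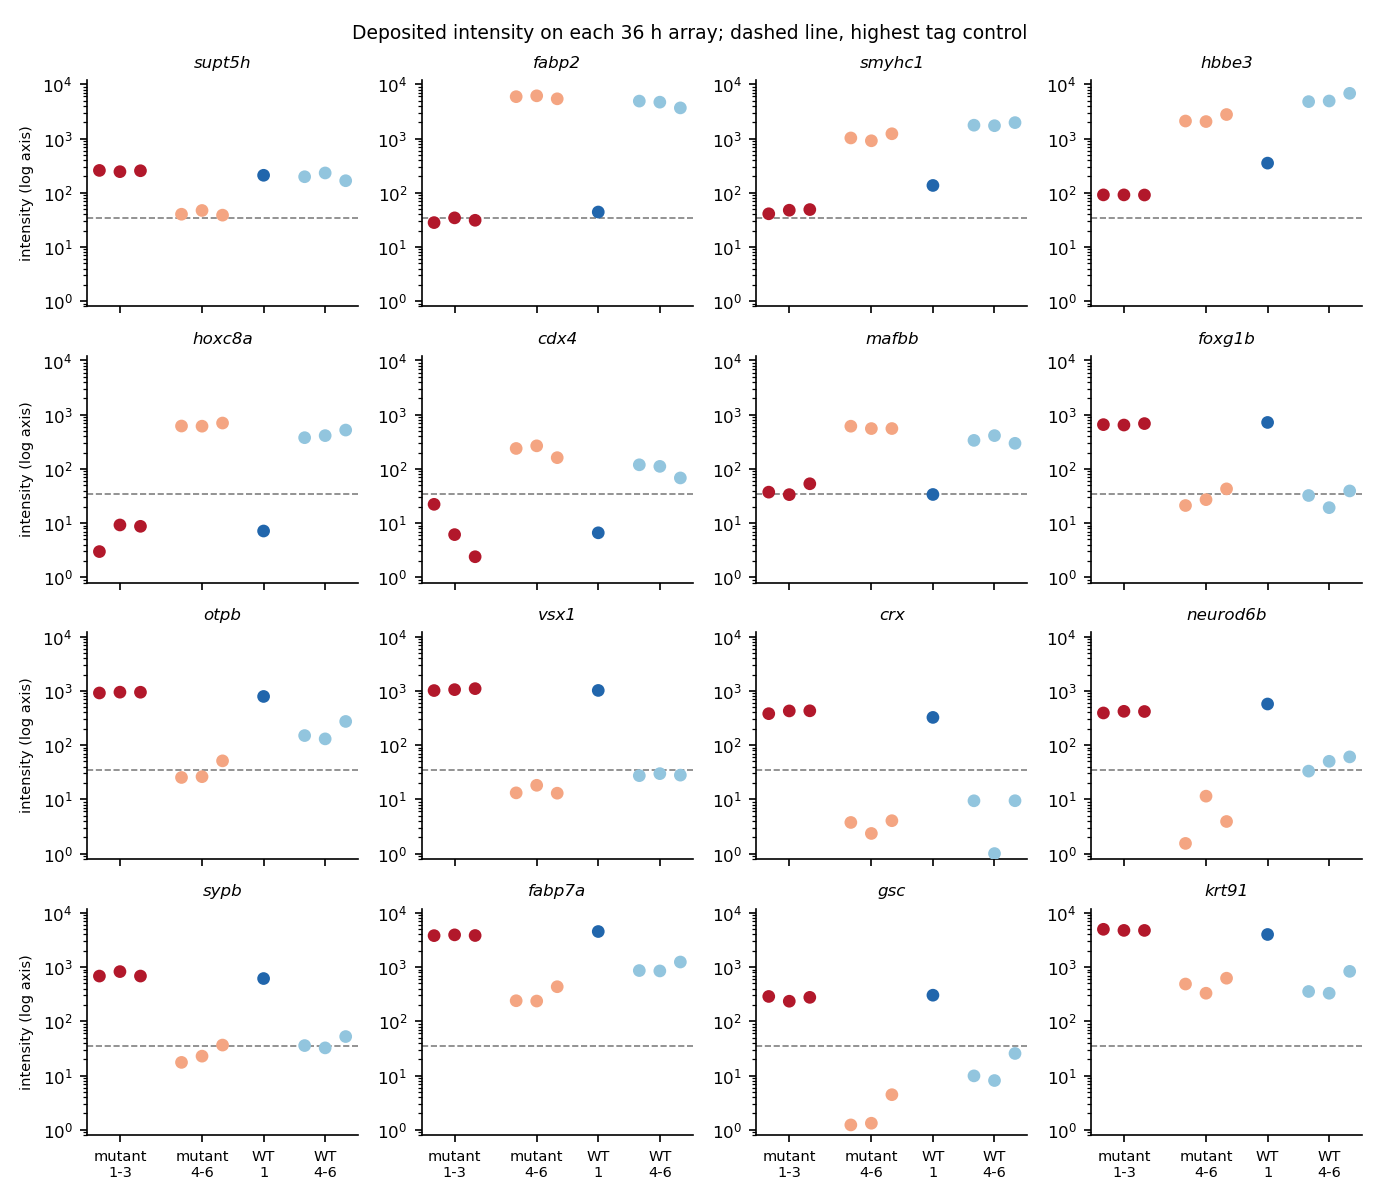
Deposited intensity (log axis) of 16 genes on each 36 h array, in the order mutant label 1-3, mutant label 4-6, wild type 1 and wild type 4-6, with values under 1 drawn at 1 and the dashed line at the highest tag control of 34.4 units. In the 15 panels other than supt5h, wild-type arrays 4-6 lie on the same side of wild-type array 1 as arrays 4-6 lie of arrays 1-3.

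Ear genes split into sharply opposed members. Of 20 genes of inner ear, lateral line and olfactory organ, 10 were higher and 6 lower. The otolith matrix gene oc90 was at 13.3, 7.41 and 4.94 units in arrays 1-3 and 165, 228 and 163 in arrays 4-6 (at least 4.699-fold, adjusted p = 5.01e-07). Another otolith gene, otomp, was at 225, 171 and 189 in arrays 1-3 and 5.404, 1.89 and 6.81 in arrays 4-6 (at least 3.55-fold, adjusted p = 4.61e-07). These 2 genes of one organ moved in opposite directions with no overlap between sets. The calcium-binding calretinin gene calb2b, used by hair cells and neurons, was higher (3.25 ± 0.15, adjusted p = 3.48e-07).

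Muscle genes were lower in arrays 1-3. Of 53 skeletal muscle genes, 42 were lower and 5 higher, 18 of the lower ones at least 4-fold (median -1.71). Values of smyhc1, the slow myosin heavy chain, were 40.9, 47.6 and 48.9 units in arrays 1-3 and 1024, 908 and 1223 in arrays 4-6 (-4.24 ± 0.13, adjusted p = 4.14e-08). Those of tnnc2.2, a fast troponin C gene, were 275, 261 and 275 in arrays 1-3 and 2503, 2513 and 3523 in arrays 4-6 (-3.20 ± 0.14, adjusted p = 3.1e-07). No array of one set reached the other. Muscle means above the tag controls numbered 36 of 53 in arrays 1-3, against 45 in arrays 4-6, so muscle message was also read in arrays 1-3. Among 16 heart muscle genes, 6 were lower and 5 higher. The cardiac myosin gene myh7 was higher, with 84.1, 104 and 95.5 in arrays 1-3 and 15.04, 17.7 and 22.4 in arrays 4-6 (at least 1.75-fold, adjusted p = 2.26e-05).

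The tail bud genes cdx4 and msgn1 were read in arrays 4-6 and were dim in arrays 1-3. Of 29 genes of somites and myogenic patterning, 11 were lower, 3 were higher and 15 were not called (median -0.23). That list thus had no settled direction. Values of cdx4, a posterior body regulator, were 22.2, 6.14 and 2.401 units in arrays 1-3 and 238, 267 and 161 in arrays 4-6 (at least 5.49-fold, adjusted p = 5.11e-06). Those of msgn1, of presomitic mesoderm, were 14.2, 13.5 and 12.2 in arrays 1-3 and 151, 128 and 66.6 in arrays 4-6 (at least 3.08-fold, adjusted p = 1.81e-05). Array 6 was the lowest of its set for both. At the 12-somite stage the control RNA mean was 1669.9 units for cdx4 and 1832 for msgn1. Of the fin bud and fin fold genes, 9 of 24 were lower and 5 higher, with hoxd13a (7.19, 2.56 and 2.89 in arrays 1-3, 62.5, 62.4 and 41.1 in arrays 4-6) lower (at least 1.81-fold) and sall1a (at least 3.67-fold, adjusted p = 1.17e-06) higher. Of 23 notochord genes, 10 were lower and 9 higher. The notochord regulator tbxta was at 9.07, 18.5 and 10.3 in arrays 1-3 and 56.5, 47.9 and 49.6 in arrays 4-6 (at least 1.74-fold, adjusted p = 1.23e-05), and the higher members were mainly collagen and matrilin genes shared with cartilage.

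Embryonic-stage genes had no settled direction. Of 22 embryonic-stage RNA-binding and growth factor genes, 11 were lower and 2 higher (median -0.21). Values of trim71, a regulator of developmental timing, were 87.7, 94.7 and 89.5 units in arrays 1-3 and 345, 336 and 278 in arrays 4-6 (-1.79 ± 0.11, adjusted p = 2.06e-06). The growth factor gene igf2a was at 51.4, 50.5 and 47.6 in arrays 1-3 and 195, 168 and 249 in arrays 4-6 (-1.97 ± 0.13, adjusted p = 3.43e-06). The chromatin protein gene hmgb3a was higher, with 3710.4, 3809 and 3741 in arrays 1-3 and 511, 494 and 438 in arrays 4-6 (3.12 ± 0.10, adjusted p = 5.88e-08). Control RNA embryos at the 12-somite stage had a mean of 823 units for trim71, 116 for igf2a and 2715 for hmgb3a. Any difference in age between the sets was not tested.

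Blood genes were lower more often than higher. Of 31 red cell genes, 17 were lower and 6 higher (median -0.60). The embryonic globin gene hbbe3 was at 91.3, 91.2 and 90.8 units in arrays 1-3 and 2101, 2055 and 2769 in arrays 4-6 (-4.47 ± 0.14, adjusted p = 4.62e-08). Another embryonic globin gene, hbae3, was at 1310.4, 1198 and 1162 in arrays 1-3 and 2077, 1990.0 and 3421 in arrays 4-6 (-0.72 ± 0.20, adjusted p = 0.0132). Both were lower without overlap, but the difference was far larger for hbbe3. Endothelial genes had no common direction, with 7 of 24 higher and 5 lower, and the sphingosine receptor gene s1pr1 was higher (2.22 ± 0.11, adjusted p = 4.99e-07).

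Macrophage and granulocyte genes had no common direction. Of 35 myeloid and lymphoid genes, 11 were higher, 7 were lower and 17 were not called (median 0.195). These shares lie near or under those of all probe sets. The granulocyte lysozyme gene lyz was at 146, 149 and 151 units in arrays 1-3 and 0.640, 8.69 and 11.1 in arrays 4-6 (at least 2.72-fold, adjusted p = 5.33e-06). The macrophage and neural crest receptor gene csf1ra was dim in both sets. Lower members were apoeb, the apolipoprotein E gene, at 419, 401 and 472 in arrays 1-3 and 6269, 7569 and 6834 in arrays 4-6 (-3.79 ± 0.12, adjusted p = 4.69e-08), ctss2.1, a cathepsin S gene (-5.57 ± 0.20, adjusted p = 1.07e-07), and the regulators cebpa (-2.86 ± 0.10) and cebpb (-2.12 ± 0.11). Apolipoprotein E and the cebp genes are also used by the yolk syncytial layer and liver.

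Cartilage and connective tissue genes were richer in arrays 1-3. Of 48 genes of cartilage, bone and connective tissue, 29 were higher and 8 lower (median 0.60). Values of matn4, a matrilin of extracellular matrix, were 1047, 1119 and 1117 units in arrays 1-3 and 43.1, 59.9 and 74.9 in arrays 4-6 (3.91 ± 0.15, adjusted p = 1.38e-07). Those of cnmd, the cartilage protein chondromodulin, were 223, 348 and 361 in arrays 1-3 and 42.4, 22.6 and 32.3 in arrays 4-6 (at least 5.37-fold, adjusted p = 1.13e-05). The sets did not overlap. The basement membrane laminin gene lamb1a was on the other side (-1.27 ± 0.10, adjusted p = 7.07e-06). Of 39 genes of neural crest and pharyngeal arches, 19 were higher and 8 lower, and their median of 0.16 gave no settled direction. The arch and head organizer gene gsc was at 288, 235 and 277 units in arrays 1-3 and 1.23, 1.32 and 4.43 in arrays 4-6 (at least 4.94-fold, adjusted p = 7.12e-08), and tfap2b, an AP-2 factor of crest and neurons, was higher too (3.20 ± 0.12, adjusted p = 1.16e-07).

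Skin was read in both sets, with different keratins. Of 60 keratin and epidermis genes, 13 were higher and 21 lower (median -0.19). Values of krt91 were 4983, 4756 and 4751 units in arrays 1-3 and 488, 329.9 and 624 in arrays 4-6 (3.53 ± 0.19, adjusted p = 8.54e-07). Those of krt17 were 404, 386 and 389 in arrays 1-3 and 2696, 3144 and 1355 in arrays 4-6 (-2.38 ± 0.28, adjusted p = 0.000108). The surface keratin gene krt4 was bright and did not pass, with 10372, 9439.6 and 9473 in arrays 1-3 and 9976, 11119.8 and 11309 in arrays 4-6 (0.13 ± 0.10, adjusted p = 0.276). Skin message was thus present in every array, while single keratins differed in opposite directions. Hatching gland genes were few, and klf17 was lower (-1.75 ± 0.12, adjusted p = 3.53e-06).

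Kidney and endocrine genes were read because one label field names adrenal medulla. Of 24 genes of pronephros and ionocytes, 7 were lower and 4 higher (median -0.10). The water channel gene aqp3a was at 754, 964 and 1033 units in arrays 1-3 and 24.3, 33.6 and 119.8 in arrays 4-6 (3.81 ± 0.37, adjusted p = 3.23e-05), and array 6 was above arrays 4 and 5. Of 10 genes of the fish homologue of the adrenal gland, 2 had means above the tag controls in arrays 1-3 and 4 in arrays 4-6. The steroid-forming enzyme gene cyp11a1.1 was at 17.01, 12.3 and 15.7 in arrays 1-3 and 174, 157 and 107 in arrays 4-6 (at least 3.82-fold, adjusted p = 1.5e-06), and it is also used in the yolk of early embryos. Defining chromaffin genes th and dbh were dim in all 6 arrays, at most 11.2 units. They are also among the monoaminergic genes above, so their dim values cannot tell whether adrenal medulla was present. No hormone gene of the pituitary list passed the tag controls on average except prl in arrays 1-3 (32.4, 39.6 and 43.2 in arrays 1-3, 5.05, 2.58 and 1.13 in arrays 4-6).

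Housekeeping groups differed in part. Of 81 genes of mitochondrial respiration, 62 were lower and 7 higher, with a median of -0.55. Under the wild-type label the median of this list was nearer that of all probe sets, at -0.24. Values of ndufc1, a complex I subunit, were 336, 325 and 344 units in arrays 1-3 and 784, 789 and 850.3 in arrays 4-6 (-1.15 ± 0.09, adjusted p = 1.05e-05). Members that went the other way included cox4i2 (at least 1.696-fold) and ndufa4b (at least 2.46-fold), both with dim means in arrays 4-6. Of 68 cytosolic ribosomal protein genes, 7 were lower and 1 higher. Their median was -0.04, but it was -0.49 relative to all probe sets without between-array normalization, so their direction rests on the normalization.

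Paralogous genes of glycolysis differed in opposite directions. The glycolytic gene gapdh was at 203, 184 and 193 units in arrays 1-3 and 4690.2, 5866 and 5900.0 in arrays 4-6 (-4.68 ± 0.11, adjusted p = 1.02e-08). Its paralogue gapdhs was at 4182, 3895 and 3947 in arrays 1-3 and 235, 299 and 568 in arrays 4-6 (3.66 ± 0.25, adjusted p = 4.02e-06). Each set was therefore bright for one of the 2 genes. The muscle form pgam2 was lower (at least 13.6-fold), while pgam1b (2.34 ± 0.09, adjusted p = 1.9e-07) and the brain aldolase gene aldocb (2.25 ± 0.18, adjusted p = 1.17e-05) were higher. Over the 24 glycolysis genes, 11 were higher and 7 lower. Of 13 sodium pump subunit genes, 6 were higher and 1 lower, with atp1a1b (at least 7.41-fold), atp1a3a (at least 7.28-fold) and atp1b2a (2.77 ± 0.11) higher, and atp1a1a.4, also on the kidney list, lower (-0.92 ± 0.12, adjusted p = 0.00022).

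Stress and early response genes had no settled direction as lists. Of 28 immediate early genes, 16 were lower and 5 higher (median -0.49). Values of fosab were 91.6, 60.3 and 66.4 units in arrays 1-3 and 339.9, 459 and 183 in arrays 4-6 (-2.06 ± 0.28, adjusted p = 0.000275). Array 6 was the lowest of its set but stayed above arrays 1-3. Of 28 heat shock and chaperone genes, 9 were higher, 9 were lower and 10 were not called (median -0.13). Both shares lie near those of all probe sets. The small heat shock gene hspb1 was at 179, 170.5 and 171 in arrays 1-3 and 1341, 1305 and 1388 in arrays 4-6 (-2.80 ± 0.09, adjusted p = 7.08e-08), and hsp90aa1.1, a chaperone of muscle myosin, was lower with the muscle genes (-2.52 ± 0.11, adjusted p = 2.84e-07). Among 26 transcription elongation genes, 6 were higher, supt5h included, and 11 lower.

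Within the sets, the arrays numbered 6 stood apart for some tissues. Array 6 lay above arrays 4 and 5 for skeletal muscle, where the median deviation of the list from the set mean was -0.10, -0.19 and 0.29 (log2) in arrays 4, 5 and 6. Wild-type array 6 showed the same, with -0.18, -0.13 and 0.32 in wild-type arrays 4, 5 and 6. For embryonic globins the deviations were -0.17, -0.30 and 0.52 in arrays 4, 5 and 6, and -0.20, -0.21 and 0.40 in wild-type arrays 4, 5 and 6. Somite genes ran the other way, at 0.05, 0.02 and -0.07 in arrays 4, 5 and 6 and at 0.10, 0.15 and -0.19 in wild-type arrays 4, 5 and 6. No deviation of the skeletal muscle list in arrays 1-3 passed 0.03 in size. The largest within-set deviations of muscle are small beside the set difference of -1.71.

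**Figure D4:**
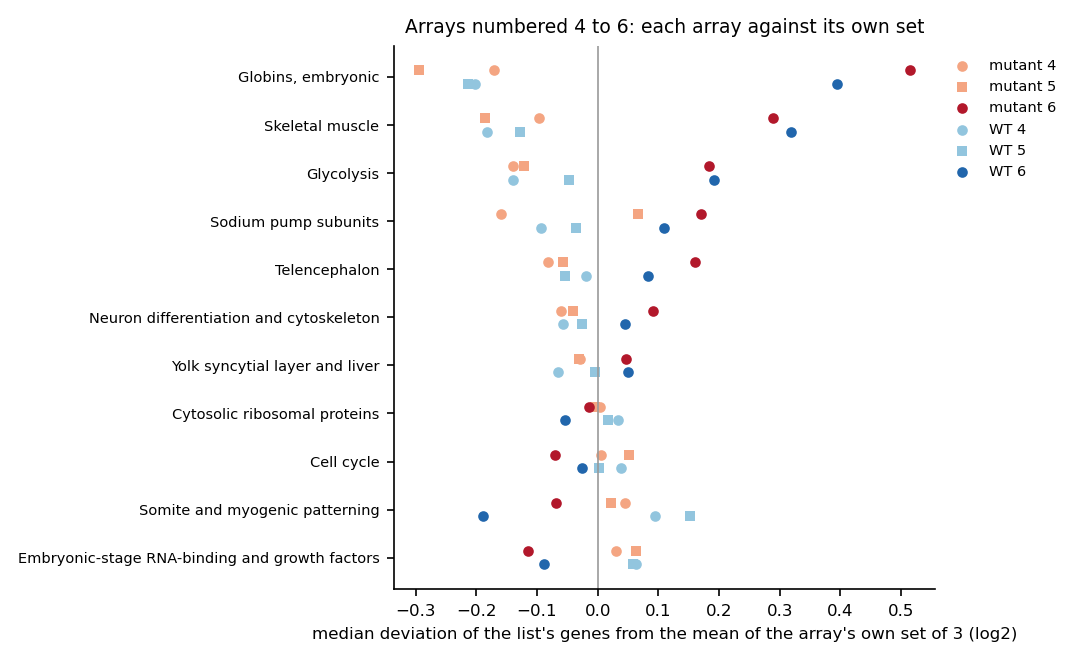
Median deviation of 11 gene lists from the mean of the array's own set of 3 (x axis, log2) for arrays 4, 5 and 6 of the mutant label (reds) and of wild type (blues). Array 6 lies to the right for embryonic globins and skeletal muscle and to the left for somite and embryonic-stage genes under both labels.

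The same numbers separated the wild-type arrays, which are other samples. Wild-type array 1 against wild-type arrays 4-6 gave 3067 higher (19.8%) and 2993 lower (19.3%), and 334 (2.15%) and 327 (2.11%) at least 4-fold. With 1 array on one side, its spread was taken as that of the other groups in a fit of 4 groups. That array had an actin control 3'/5' ratio of 3.31 (log2), above all other 36 h arrays. Its GAPDH control ratio was 0.84, inside the range of arrays 1-3. The part of either ratio in these values was not tested. Of the 433 probe sets at least 4-fold higher in arrays 1-3, 425 were also called higher in wild-type array 1, and 277 were at least 4-fold higher there, which is 63.97% of the 433 and 82.9% of the 334. Of the 356 at least 4-fold lower, 351 were also called lower and 263 were at least 4-fold lower, 73.9% of the 356 and 80.4% of the 327. List medians under the wild-type label were -2.15 for yolk and liver, -2.30 for skeletal muscle, -1.57 for Hox groups 5 to 13, 0.64 for telencephalon and 1.52 for synapse.

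Whether the set difference depended on the label was tested for each probe set, with 1 wild-type array on one side, which limits what can be called. The difference between the 2 set differences was called in the higher direction for 163 (1.05%) and in the lower for 76 (0.490%). A pseudocount of 1 gave 50 higher and 26 lower, and one of 64 gave 375 and 234. Leaving out 1 array gave 67 to 195 and 36 to 95, with the lowest counts without array 2. Hox genes of groups 5 and 6 stood among them, and were picked out after their values were seen. Values of hoxb5a were 82.1, 101 and 93.8 units in arrays 1-3 and 238, 199.9 and 225 in arrays 4-6, but 186 in wild-type array 1 and 113, 105 and 150.3 in wild-type arrays 4-6. The gene was thus lower in arrays 1-3 than in arrays 4-6 and was not called between the wild-type arrays (0.46), and the difference between the labels was -1.76 ± 0.23 (adjusted p = 0.00524). For hoxb6a the values were 11.6, 1.96 and 3.98 in arrays 1-3, 134, 137 and 138 in arrays 4-6, 21.9 in wild-type array 1 and 80.6, 64.9 and 73.1 in wild-type arrays 4-6, and the difference between the labels was -1.48 ± 0.23 (adjusted p = 0.0105). In groups 8 to 13, 20 genes were measured, and their differences between the labels were mostly negative too. They ran from -0.88 for hoxb10a to 0.255 for hoxa13b, with hoxc8a at -0.50 and hoxb9a at 0.12. Negative values were thus not confined to groups 5 and 6.

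**Figure D5:**
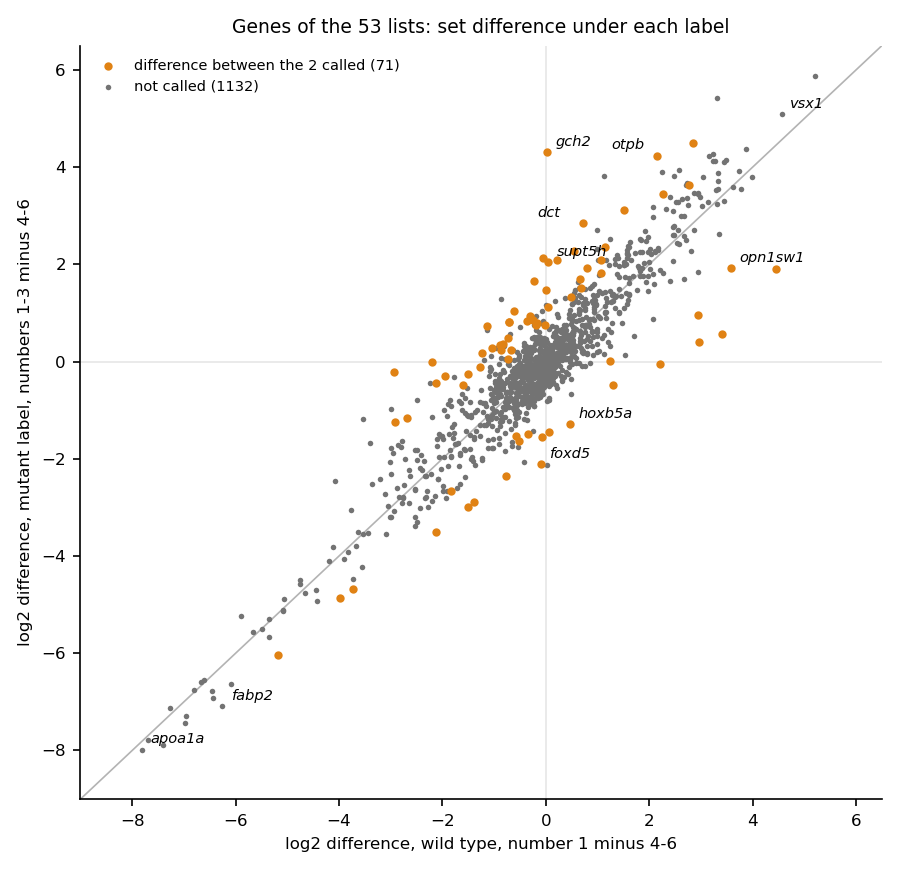
Log2 set difference of 1203 list genes under the mutant label, arrays 1-3 minus 4-6 (y axis), against that under the wild-type label, array 1 minus 4-6 (x axis), with the line of equality. Orange points mark 71 genes whose 2 differences differ at an adjusted p under 0.05, and the other 1132 are grey; fabp2 lies at -7.08 under the mutant label and -6.25 under wild type.

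List medians under the labels lay further apart for some lists than for others, as the plot of list medians shows. For progenitors and Notch the median was 0.44 in arrays labelled mutant and -0.20 in wild type. For the cell cycle it was -0.38 in arrays labelled mutant and -0.73 in wild type, and for pigment cells 0.40 in arrays labelled mutant and -0.01 in wild type. The 3 embryonic globin genes had a median of -2.13 in arrays labelled mutant and -0.12 in wild type. For radial glia it was 0.95 in arrays labelled mutant and 0.38 in wild type, and for retina 1.23 in arrays labelled mutant and 0.66 in wild type. Photoreceptors had 0.09 in arrays labelled mutant and 0.63 in wild type, and immediate early genes -0.49 in arrays labelled mutant and -0.07 in wild type. These differences between medians were not tested. Each wild-type median sets 1 array against wild-type arrays 4-6, and that of embryonic globins rests on 3 genes. The gaps are therefore not read as effects of the label. The melanin enzyme gene dct was at 257, 254 and 256 units in arrays 1-3 and 13.5, 18.7 and 20.4 in arrays 4-6, and at 446 in wild-type array 1 and 259, 213 and 354 in wild-type arrays 4-6, so that arrays 4-6 alone were dim. The replication gene mcm3 was at 439, 428 and 444 in arrays 1-3, 309.9, 339 and 292 in arrays 4-6, 415 in wild-type array 1 and 708, 739 and 747 in wild-type arrays 4-6. Its highest values were thus those of wild-type arrays 4-6, and the difference between the labels was 1.21 ± 0.16. A dimmer mcm3 probe set was at 116, 130 and 134 in arrays 1-3 and 165, 140 and 136 in arrays 4-6 (-0.33), the other way. Its mean in wild-type arrays 4-6 was 357, and its difference between the labels was 0.93.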

How the data were processed

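The 16 arrays give 1 linear intensity per probe set, deposited by the authors. Means trimmed by 2% at each end are about equal over the arrays, so the values had been scaled per array, with no further normalization seen. Which software summarised the probes is not given in the sources used. Of 15617 probe sets, 115 controls were left out, and 15502 were used. The platform annotation gave 10795 of them 1 gene symbol, 135 several and 4572 none, with 1 symbol updated through RefSeq. For a gene with several probe sets on a list, the brightest was used. Values were quantile normalized as log2(intensity + 16) and tested with limma 3.58.1 (R 4.3.3) with Benjamini-Hochberg adjustment over all probe sets, after the procedure was tested on simulated data. Arrays 1-3 were fitted against arrays 4-6, and 4 groups of 10 arrays gave the wild-type contrast and the difference between the contrasts. Tables and plots used Python 3.11.15, pandas 2.3.3, numpy 2.4.6, scipy 1.17.1 and matplotlib 3.10.9. Precision is limited by 3 arrays per set.

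The members and the 53 gene lists were chosen with earlier results of these data known, and lists were trimmed to genes on the array. Named genes are supt5h, the 15 with the largest difference in each direction, the 15 brightest in each direction with the other set dim, and up to 4 called members per list and direction. The groups of 15 came only from called probe sets whose values did not overlap between the sets. Their lack of overlap is therefore no separate result. Genes that define a region or cell type are also given where they did not pass. The genes hoxb5a, hoxb5b, hoxc5a, hoxb6a and hoxb6b were added after their values were seen. Where a set mean was at or under the highest tag control (34.4 units), a bound is given in place of a fold, taken on normalized values. Alternatives were other normalizations, pseudocounts of 1 and 64, filters on low values, a fit of all 10 arrays with and without the label number as a replicate block, and leaving out each array.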

Additional observations from a re-analysis of the deposited data

Results flagged for a closer look

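For 32 named genes the set difference under the mutant label and that under the wild-type label were not alike in a test of the difference between them (limma, adjusted p under 0.05). The values below are log2 differences of set differences, mutant label minus wild type. Wild type has 1 array numbered 1, so each value rests on that array.

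Pigment and eye genes gave many of them. The pteridine enzyme gene gch2 had 4.28, dct 2.12 and slc2a15b, a pigment cell transporter, 1.87. The lens gene crybb1 had 2.19, while the photoreceptor genes gngt2b, opn1sw1 and rbp4l had -2.0, -1.65 and -1.5. These 3 values come from unlike patterns. The set difference was positive under both labels for gngt2b (0.95 mutant label, 2.95 wild type) and opn1sw1 (1.92 and 3.57). For rbp4l it was negative under both (-2.89 and -1.40). Nervous system genes with higher values were otpb with 2.08, gpm6aa with 1.64, aplp1 with 0.92, slc1a2b with 0.86 and zic2a with 0.83. The serotonin enzyme gene tph1b had 1.53, but all of its values at 36 h lay under 34.4 units, the highest tag control. The targeted gene supt5h had 1.99.

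Of the 29 genes of Hox groups 5 to 13, 5 were called, all of groups 5 and 6. These were hoxb5a, hoxb6b, hoxc5a, hoxb6a and hoxb5b with -1.76, -1.58, -1.5, -1.48 and -0.95, named after their values were seen, and foxd5 of the tail bud had -2.01. The last 4 groups are blood with aqp1a.1 at 1.86 and dmtn at 1.2, muscle with cmlc1 at 1.53, fabp3 at 1.08, myl10 at -1.07 and pvalb9 at -0.85, growth with hmgb3a at 1.61, mcm3 at 1.21 and kif11 at 0.77, and stress and metabolism with gadd45ba at -1.48, hsp70.3 at -1.11 and gapdh at -0.95.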

How the results depend on the processing

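The 18 gene lists with medians at least 0.5 from all probe sets kept their sign under every setting in which they had a value. Leaving out 1 array at a time gave 3773 to 4213 higher and 3953 to 4536 lower among arrays labelled mutant, and 424 to 454 and 350 to 358 at least 4-fold. In wild type it gave 2791 to 3157 and 2625 to 3190, and 317 to 368 and 327 to 340 at least 4-fold. The difference between the 2 set differences depended most on single arrays, with 163 higher and 76 lower in all, 67 to 195 and 36 to 95 over these fits. It was 70 and 41 without array 1, 67 and 36 without array 2, 71 and 36 without array 3, 107 and 48 without array 4, 101 and 48 without array 5, and 89 and 42 without wild-type array 4. Filtering at the 60th percentile, which leaves 6201 probe sets, gave 2278 higher and 2435 lower, 279 and 208 at least 4-fold, and 211 named genes, none of which lost its call. The pseudocount set the 4-fold counts, at 880 and 728 with 1 unit and 187 and 167 with 64, and in wild type 651 and 673 with 1 and 135 and 178 with 64. The difference between set differences gave 50 and 26 with 1 unit, 375 and 234 with 64, 259 higher with a filter at the 30th percentile, and 339 and 161 with an intensity trend and robust prior. Lists with a median at least 0.5 above or below all probe sets numbered 12 and 6, against 19 and 10 with the filter at the 30th percentile and 20 and 10 at the 60th, and 5 were above with a pseudocount of 64. Between-array normalization moved the 4-fold split to 550 and 303 without it and to 342 and 427 with medians centred, and in wild type all calls to 4477 and 2367 or 2585 and 3931. Of 338 named probe sets, 321 to 334 kept their call without 1 array, hoxb3a turned to -0.027 with medians centred, and rpl24 to -0.016 as deposited and -0.37 with medians centred. A fit of all 10 arrays with the label number as a replicate block (consensus correlation -0.02) gave 4525 higher and 4767 lower, against 4504 and 4750 without it, and 324 named calls held either way. Deviations from the group mean correlated across probe sets at 0.03 between the arrays numbered 4 of both labels, 0.16 between those numbered 5 and 0.24 between those numbered 6. Array 4 did not correlate best with its own number, and arrays were not treated as pairs. Signal over background limits the dim lists, of which photoreceptor, adrenal and pituitary genes are the clearest.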

Other observations

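Of 7 fatty acid binding protein genes on the array, 2 were higher in arrays 1-3 and 2 lower. The liver and yolk gene fabp1b.1 was at 16.3, 32.3 and 16.4 units in arrays 1-3 and 7498, 8007 and 7450.1 in arrays 4-6 (at least 163-fold lower, limma adjusted p = 5.88e-09), as described above for fabp2 of the gut. The gene fabp3 was higher, with 3566, 3379 and 3472 in arrays 1-3 and 2040.3, 1836 and 1808 in arrays 4-6 (1.11 ± 0.10, adjusted p = 1.5e-05), as was fabp7a of radial glia. The other 3 were dim in both sets. Parvalbumin genes, which encode calcium-binding proteins, parted as well. Values of pvalb5 were 638, 605 and 614 in arrays 1-3 and 9.11, 1.25 and 12.9 in arrays 4-6 (at least 11.7-fold, adjusted p = 2.53e-07), and those of pvalb9 were 55.96, 58.9 and 49.1 in arrays 1-3 and 4259.9, 3890.3 and 4327 in arrays 4-6 (-6.04 ± 0.11, adjusted p = 3.28e-09).

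Among elongation genes apart from supt5h, leo1, of the Paf1 complex, was at 389, 415 and 445 units in arrays 1-3 and 184, 133 and 146 in arrays 4-6 (1.33 ± 0.12, adjusted p = 2.36e-05). The elongation factor gene ell2 was at 91.9, 64.8 and 64.3 in arrays 1-3 and 293, 274 and 225 in arrays 4-6 (-1.83 ± 0.16, adjusted p = 1.58e-05), and polr2a, the large subunit of RNA polymerase II, was lower too (-0.86 ± 0.16, adjusted p = 0.00151). Members of this process thus differed in both directions. Among early response genes, junba was at 39.5, 34.9 and 30.1 in arrays 1-3 and 183, 161 and 46.98 in arrays 4-6, so that array 6 lay near arrays 1-3 (-1.66 ± 0.35, adjusted p = 0.00309). The claudin gene cldn11a, of tight junctions in myelin and epithelia, was at 451, 434 and 469 in arrays 1-3 and 7.93, 15.9 and 19.96 in arrays 4-6 (at least 8.33-fold, adjusted p = 2.25e-07).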
